A study of Mus musculus with 7 samples.

Results

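Fn1, Fbn1, Eln, Fbln1, Fbln2, Sparc, Postn, Thbs1, Bgn and Dcn encode secreted glycoproteins and proteoglycans that build elastic fibres or act as matricellular proteins. The genes were matched by symbol to a list of names and make up 10 of the 55228 rows of the count table. Reads per gene were counted in primary granulosa cells, the somatic layer around the oocyte in an ovarian follicle. The cells came from ovaries of C57BL/6J mice without treatment, with 4 libraries of WT and 3 of Fhl2 KO genotype. The sources used here do not give the age of the mice, the making of the Fhl2 allele or any pooling of animals. Nothing says whether libraries of 1 genotype stem from different mice or cultures, so p-values measure only the spread between these libraries, which may be technical.

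Fibronectin, the product of Fn1, is drawn out by integrins at the cell surface into fibrils on which other matrix proteins are laid down. Fibrillin-1, from Fbn1, forms the microfibrils that guide the deposition of elastin and that hold latent TGF-beta complexes, and the fibulins bind to both. Matricellular proteins such as thrombospondin-1, SPARC and periostin carry little load and instead modulate adhesion and growth factor activity, while biglycan and decorin are small leucine-rich proteoglycans that bind collagen. In the ovary such matrix lies in the stroma and the theca and in part is made by granulosa cells themselves, and thrombospondin-1 is known there as an inhibitor of blood vessel growth.

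Library totals ran from 38855596 to 50514556 counts. Levels are CPM, counts scaled to the same total in every library after adjustment by the trimmed mean of M values (TMM), and 3 counts, taken as the floor, equal 0.0598 to 0.0775 CPM in a library, which covers counting error only. Counts of Fhl2 itself were 3910, 5732, 4958 and 4798 in the WT group, in library order, and 1880, 3132 and 2749 in KO libraries 1 to 3. Its mean fell to 54.1% of WT (log2 fold change -0.88, SE 0.107, adjusted p = 3.29e-05), so reads of the gene remained in every KO library. The summed level of 12 granulosa markers was 6128 to 6831 CPM in WT and 5601 to 6676 CPM in KO. Of 11 tested, 4 were lower (Foxl2, Amh, Inhba and Fst) and 4 higher (Inha, Kitl, Nr5a1 and Fshr). Among all 15798 genes tested, 15.6% were lower and 2128 were higher. With the correction for length and GC described below, Fshr no longer passed (adjusted p = 0.0753). Hsd17b1, named after its value was seen, was then lower (-0.29, adjusted p = 0.00683). Foxl2, a defining granulosa factor, was at 70.12 ± 6.61 CPM (SD, n = 4) in WT and 52.51 ± 6.45 CPM (SD, n = 3) in KO (log2 fold change -0.42, adjusted p = 0.00793), and Cyp19a1, the aromatase gene, was at 0 in all WT libraries with a total of 31 counts in KO. The KO libraries differed in how level depended on transcript length. This was measured on log2 CPM relative to each gene's mean over the 7 libraries. The change per doubling of length was 0.0581 to 0.0855 in WT libraries and -0.0016, -0.17 and -0.13 in KO libraries 1 to 3. The 10 genes were therefore also examined after correction for length and GC content and with KO library 1 alone.

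In Fhl2 KO cells 4 of the 10 genes were lower and none was higher. Fibronectin fell most, to 48.2% of its WT level, followed by fibrillin-1 at 60.8%, biglycan at 72.3% and fibulin-1 at 83.1%. Thrombospondin-1 and SPARC, the most abundant of the 10, stood at 88.1% and 89.1% without passing the test. Elastin, decorin and periostin were barely detected in either genotype. Read against the background, 4 of 9 genes tested were called lower (edgeR, adjusted p under 0.05), where 15.6% of all 15798 tested genes were lower and 29.0% changed in either direction. The median log2 fold change was -0.26 over the 9 genes and -0.00018 over all genes tested. Periostin did not pass the low-count filter, and 5 tested genes were not called.

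Compared per length, as CPM per kilobase of exon, Thbs1 led by a wide margin at 2326 in WT, 5.19 times Sparc at 448.5. Sparc in turn stood 8.94 times above Bgn at 50.19. Below them came Fn1 at 25.39, Fbn1 at 19.74 and Fbln1 at 15.73. Their WT libraries did not overlap, although Fn1 stood only 1.29 times above Fbn1 and Fbn1 1.26 times above Fbln1. Fbln2 followed at 2.377, then Dcn at 0.0886, Eln at 0.0580 and Postn at 0.0011. By exon union length, only Dcn and Eln could not be placed in order from the WT libraries. In KO cells Fbln1, at 13.06, ranked above Fn1 at 12.25 and Fbn1 at 12.0, but the ranges of Fn1 and Fbn1 and of Fbn1 and Fbln1 overlapped there. The sizes depend on the length used: with the longest transcript in place of the exon union, Thbs1 stood at 2416, Sparc at 738.6 and Bgn at 114.8 in WT, and 8 of the 10 positions were the same.

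**Figure D1:**
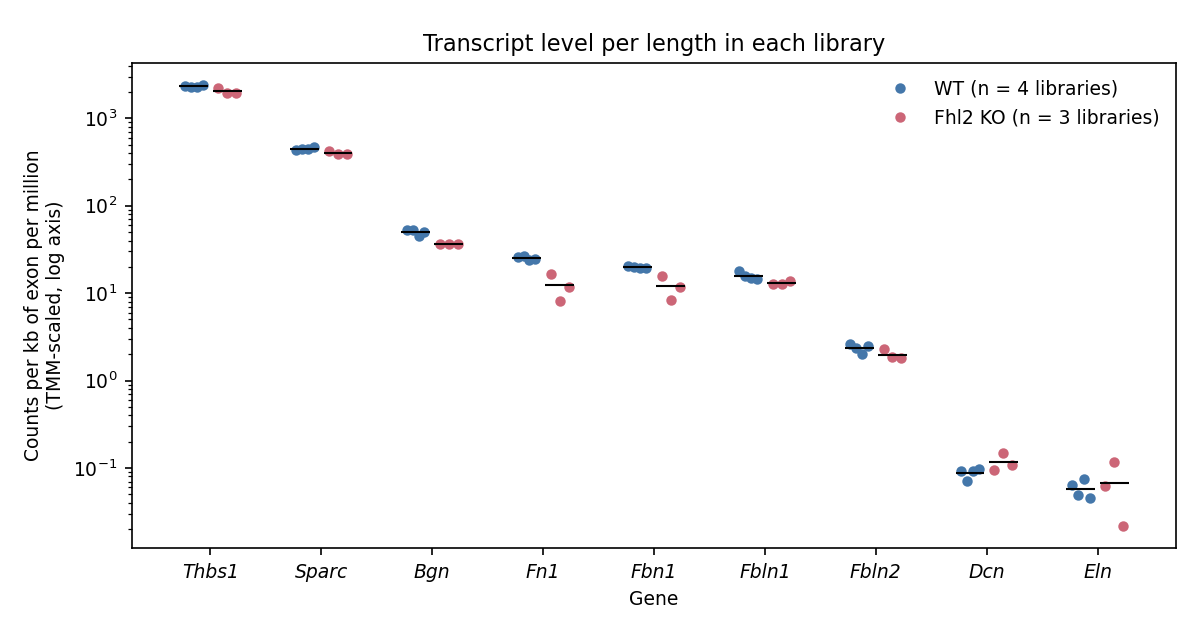
TMM-scaled CPM per kilobase of exon on a log axis for 9 of the 10 genes, with 1 point per library, WT (n = 4) in blue and Fhl2 KO (n = 3) in red, and a bar at each group mean. Postn, at 0 in 4 libraries, is left off; Thbs1 lies at 2326 and Eln at 0.0580 in WT, and in KO the points of Fn1, Fbn1 and Fbln1 run together.

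Fn1 (chr1:71585520-71653200 of mm10, minus strand) encodes fibronectin, the adhesive glycoprotein that integrins anchor to the cell. Its level was 303.2, 311.6, 281.9 and 290.3 CPM in WT libraries 1 to 4 and 194.6, 95.76 and 139.2 CPM in KO libraries 1 to 3. All KO libraries were below all WT libraries, and KO library 2 held the lowest value. The mean fell from 296.7 ± 13.2 (SD, n = 4) to 143.2 ± 49.5 CPM (SD, n = 3), a log2 fold change of -1.05 (SE 0.206, adjusted p = 0.00762, edgeR quasi-likelihood test), lower than all but 1.76% of the genes tested. Without KO library 3 the adjusted p was 0.0504.

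Fbn1 (chr2:125300594-125507993, minus strand) encodes fibrillin-1, the backbone of the microfibril. WT libraries 1 to 4 gave 248.3, 243.2, 232.7 and 233.6 CPM, and KO libraries 1 to 3 gave 192.8, 100.3 and 143.4 CPM. The order of the KO libraries was that of Fn1, with library 1 nearest to WT and library 2 farthest, and the groups did not overlap. The mean fell from 239.5 ± 7.58 (SD, n = 4) to 145.5 ± 46.3 CPM (SD, n = 3; log2 fold change -0.72, SE 0.179, adjusted p = 0.0161). Without KO library 3 the adjusted p was 0.0823. Over the 7 libraries, log2 CPM of Fn1 and Fbn1 went together at Pearson r = 0.992, a description of libraries that differ in genotype, depth and length dependence.

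Eln (chr5:134702593-134747323, minus strand) encodes elastin, the core of the elastic fibre that fibrillin scaffolds. WT libraries held 20, 20, 28 and 16 counts of it, and KO libraries 20, 44 and 8. KO libraries held both the highest and the lowest count, and the groups overlapped. With 0.47 ± 0.107 (SD, n = 4) against 0.541 ± 0.382 CPM (SD, n = 3), a difference was not detectable at this depth (log2 fold change 0.21, SE 0.485, adjusted p = 0.785), and its sign turned without KO library 2 (-0.46).

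Fbln1 (chr15:85205949-85286535, plus strand) encodes fibulin-1, which binds fibronectin and elastic fibres. It gave 77.85, 69.16, 65.19 and 62.59 CPM in WT and 55.19, 55.71 and 60.26 CPM in KO libraries. All KO values lay under the WT values, by as little as 62.59 against 60.26 CPM. The fall from 68.7 ± 6.67 (SD, n = 4) to 57.05 ± 2.79 CPM (SD, n = 3) was small (log2 fold change -0.27, SE 0.0955, adjusted p = 0.0436), and it passed the threshold in only 3 of 18 alternative settings, with adjusted p from 0.0211 to 0.206. It was lost on leaving out any 1 of the 7 libraries.

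Fbln2 (chr6:91212455-91272540, plus strand) encodes fibulin-2, a relative that also binds fibronectin and fibrillin. Its 16.76, 15, 12.94 and 15.87 CPM in WT overlapped the 14.68, 11.76 and 11.48 CPM in KO, since KO library 1 lay within the WT range. The means, 15.14 ± 1.63 (SD, n = 4) and 12.64 ± 1.77 CPM (SD, n = 3), gave a log2 fold change of -0.26 (SE 0.125, adjusted p = 0.125), close in size to that of Fbln1. Without KO library 1 the adjusted p was 0.0239.

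**Figure D2:**
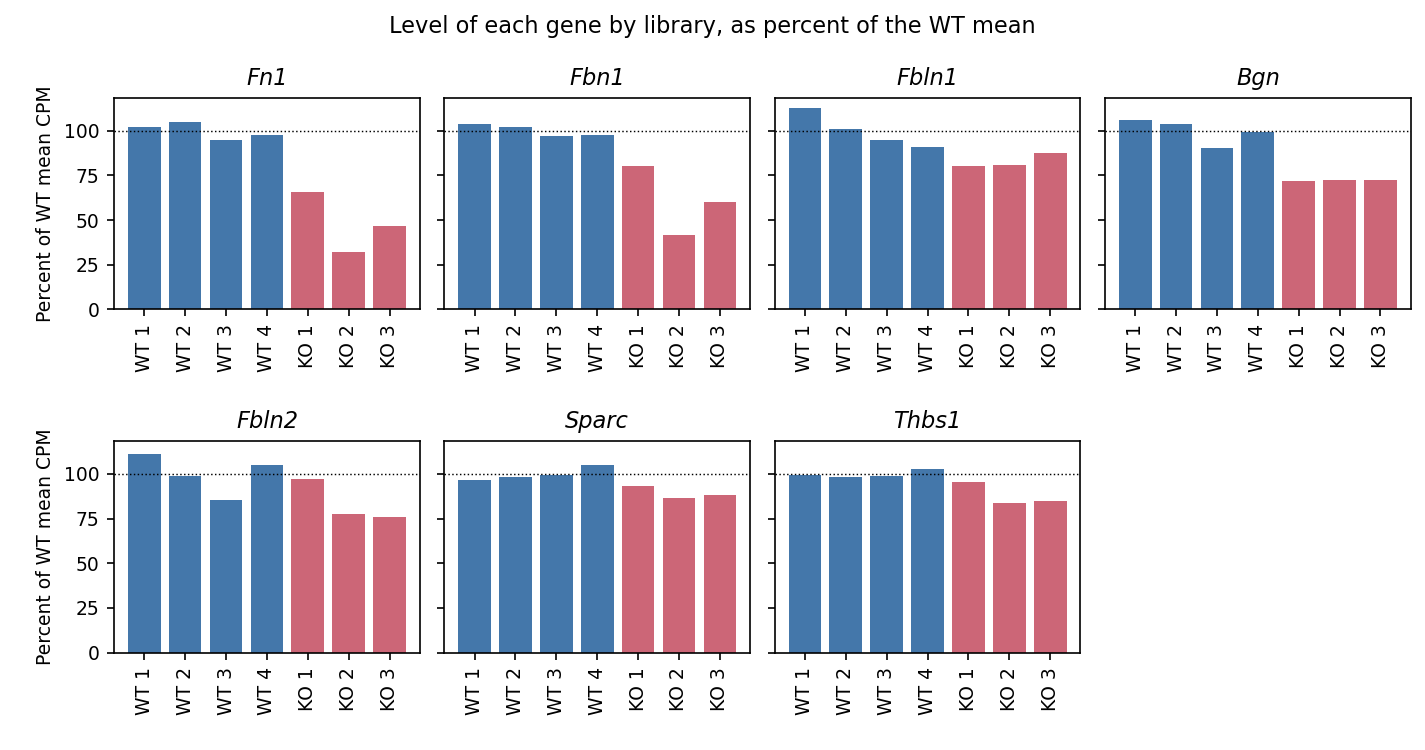
Level in each library as percent of the WT mean CPM (y axis) for the 7 genes above 1 CPM, WT libraries 1 to 4 in blue and Fhl2 KO libraries 1 to 3 in red, with the WT mean as a dotted line. Fn1 stood at 65.6%, 32.3% and 46.9% in KO libraries 1 to 3, whereas Bgn stood at 72%, 72.6% and 72.4%.

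Thbs1 (chr2:118111876-118127133, plus strand) encodes thrombospondin-1, a matricellular protein that binds CD36, CD47 and integrins and can activate latent TGF-beta. It took more reads than any other gene in 5 of the 7 libraries and came second to mt-Co1 in KO libraries 2 and 3. WT libraries held 14080, 13900, 13960 and 14570 CPM, and KO libraries 13500, 11870 and 11960 CPM. Each KO value was below each WT value, with library 1 close to the WT range. The means of 14130 ± 304 (SD, n = 4) and 12450 ± 915 CPM (SD, n = 3) gave a log2 fold change of -0.18 that did not pass (SE 0.0887, adjusted p = 0.13). Without KO library 1 it passed (-0.23, adjusted p = 0.00838), and after correction for length and GC its sign turned (0.08, adjusted p = 0.405). Thbs1 alone made up 84.1% to 85.9% of the 10 genes' counts.

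Sparc (chr11:55394500-55423183, minus strand) encodes SPARC, a collagen-binding matricellular protein. Levels were 1643, 1673, 1689 and 1790 CPM in WT and 1580, 1465 and 1496 CPM in KO libraries. The groups were separate, the lowest WT and highest KO value being 1643 and 1580 CPM. Sparc averaged 1699 ± 63.5 (SD, n = 4) and 1514 ± 59.4 CPM (SD, n = 3), a log2 fold change of -0.17 (SE 0.0855, adjusted p = 0.154). It passed after correction for length and GC (-0.28, adjusted p = 0.0103) and without KO library 1 (adjusted p = 0.0432).

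Postn (chr3:54361109-54391037, plus strand) encodes periostin, a matricellular protein of fibrous tissue. It had 0, 2, 0 and 0 counts in WT and 4, 4 and 0 in KO libraries, was not tested, and at this depth a difference could not be detected.

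Bgn (chrX:73483602-73495933, plus strand) encodes biglycan, a small proteoglycan that binds collagen and TGF-beta. WT libraries gave 323.6, 319.1, 277.2 and 304.6 CPM and KO libraries 220.3, 222.2 and 221.5 CPM. The KO libraries were nearly equal to each other and all below WT. The mean fell from 306.1 ± 20.9 (SD, n = 4) to 221.3 ± 0.958 CPM (SD, n = 3; log2 fold change -0.47, SE 0.0875, adjusted p = 0.00146). Bgn was the only one of the 10 called in all 18 alternative settings, with log2 fold changes of -0.53 to -0.43.

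Dcn (chr10:97479609-97518143, plus strand) encodes decorin, the proteoglycan closest to biglycan in structure. It had 21, 21, 25 and 25 counts in WT and 22, 41 and 29 in KO libraries, with overlapping groups and the highest value in KO library 2. At 0.517 ± 0.0678 (SD, n = 4) and 0.691 ± 0.163 CPM (SD, n = 3) it did not pass (log2 fold change 0.42, SE 0.372, adjusted p = 0.421). Lung epithelium markers, of a tissue not sampled here, summed to 10, 10, 3 and 10 counts in WT and 436, 1229 and 74 in KO libraries. KO library 2 thus had the highest count of these markers as well as of Eln and Dcn, and their part in those counts was not tested.

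**Figure D3:**
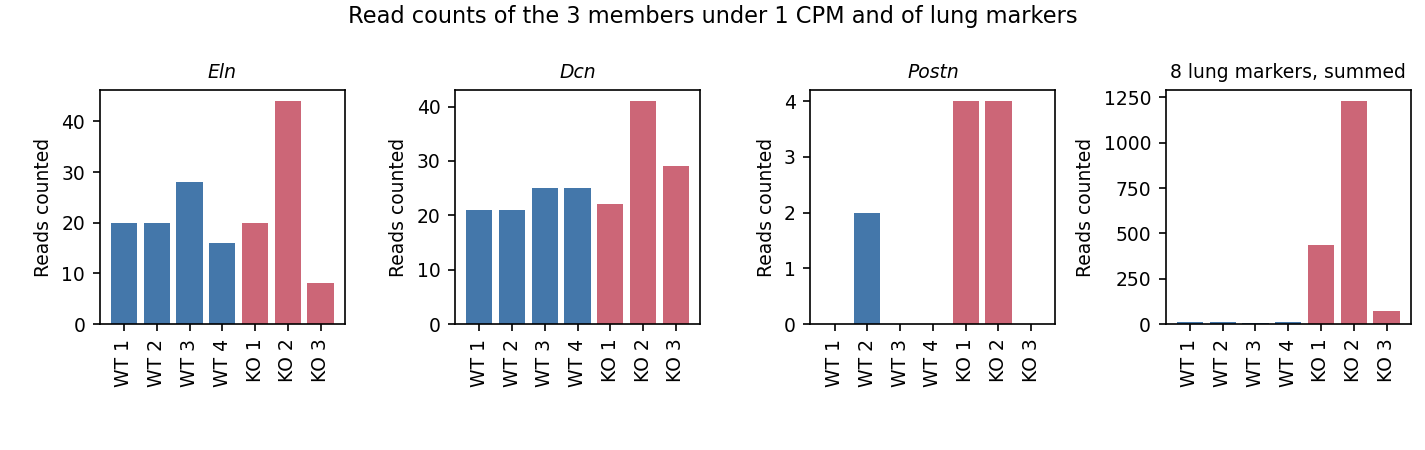
Reads counted per library (y axes, each panel to its own scale) for Eln, Dcn and Postn and for 8 lung epithelium markers summed, WT in blue and Fhl2 KO in red. KO library 2 is highest for Eln (44), Dcn (41) and the lung markers (1229).

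The promoters of Fbn1 and Bgn are printed because both genes were lower while their KO libraries differed in spread. RefSeq (GRCm38.p6) gave promoters for 6 of the 10 genes, here 250 bases before to 50 after a RefSeq gene start. The windows of Fbn1, Fbln2 and Sparc lie inside the gene spans given above, so they do not cover the outermost annotated start. Capitals mark matches to the GC box core GGGCGG on either strand.
Fbn1 (chr2:125506389-125506688, minus strand): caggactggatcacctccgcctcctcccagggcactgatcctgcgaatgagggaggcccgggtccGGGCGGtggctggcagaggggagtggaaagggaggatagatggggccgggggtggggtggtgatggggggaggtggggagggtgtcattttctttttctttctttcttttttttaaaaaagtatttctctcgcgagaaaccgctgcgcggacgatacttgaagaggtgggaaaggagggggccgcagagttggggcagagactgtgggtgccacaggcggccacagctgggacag
Bgn (chrX:73483351-73483650, plus strand): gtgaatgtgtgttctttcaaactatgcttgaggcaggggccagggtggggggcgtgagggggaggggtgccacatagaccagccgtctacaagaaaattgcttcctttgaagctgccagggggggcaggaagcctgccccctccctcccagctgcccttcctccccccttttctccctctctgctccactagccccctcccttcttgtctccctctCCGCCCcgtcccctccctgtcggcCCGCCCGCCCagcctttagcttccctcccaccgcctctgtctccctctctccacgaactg
The Fbn1 window held 1 match, at -185 from the start, and the Bgn window 3, at -34, -10 and -6, of which the last overlap each other. GGGCGG occurred in 35.7% of 32851 mouse promoters of the same length. GC content was 60.3% for Fbn1 and 63.7% for Bgn, beside a median of 52.7% over those promoters. The letters GGAATG (TEAD core) and TGANTCA (AP-1), searched on both strands, were in neither window, nor in those of Fbln1, Fbln2, Sparc and Postn, and occurred in 14.7% and 7.81% of all promoters. TATAAA, found in 13.6% of them, was in 1 Postn window.

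In 6 of the genes, Fn1, Fbn1, Fbln1, Sparc, Thbs1 and Bgn, every KO library was below every WT library, as it was in 17.7% of all genes tested. Calls varied with transcript length. Among the 1558 tested genes with the longest transcripts, from 6595 bases up, which include Fn1 and Fbn1, 46.7% were called lower with a median log2 fold change of -0.38. In the bin of 2628 to 3123 bases, which holds Bgn, 9.1% were lower and the median was 0.05. After each library's trend with length and GC was removed, 5 of the 9 tested genes were lower (Fn1, Fbn1, Fbln1, Sparc and Bgn), where 11.3% of all genes were. Fn1 then had a log2 fold change of -0.76 (adjusted p = 0.00012), Fbn1 -0.28 (adjusted p = 0.0094), Fbln1 -0.26 (adjusted p = 0.0211) and Bgn -0.51 (adjusted p = 0.0001). With length alone removed, Fbn1 no longer passed (-0.25, adjusted p = 0.0530). KO library 1, whose length dependence was the nearest of the KO libraries to that of WT but still below it, was also set alone against WT. It gave -0.61 for Fn1 (adjusted p = 0.000199), -0.31 for Fbn1 (adjusted p = 0.0402) and -0.48 for Bgn (adjusted p = 0.00427), with the lone library assumed to vary like the WT libraries. In that comparison Fbln1 (-0.32, adjusted p = 0.13), Sparc (-0.11, adjusted p = 0.555), Thbs1 (-0.07, adjusted p = 0.728) and Fbln2 (-0.04, adjusted p = 0.915) did not pass.

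**Figure D4:**
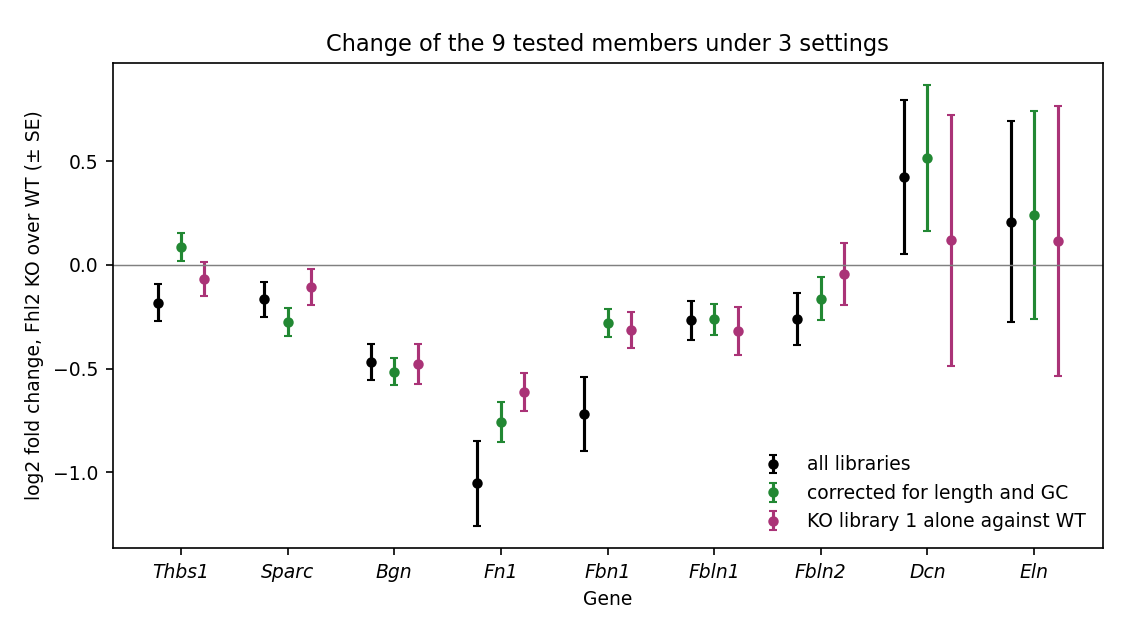
Log2 fold change of Fhl2 KO over WT ± SE for the 9 tested genes, from all 7 libraries (black), after correction for length and GC (green) and from KO library 1 alone against WT (purple). Bgn and Fbln1 lie at about the same place in each; Fn1 moved from -1.05 to -0.76 and -0.61, and Thbs1 from -0.18 to 0.08 after correction.

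Cells that make much of this matrix outside the follicle wall were looked for by their markers. Of 12 fibroblast markers, 10 were tested and 6 were lower, beside 15.6% of all genes tested. The summed level of the 12 markers was 404.3 to 460.6 CPM in WT and 154.2 to 187.8 CPM in KO, led by the collagens Col3a1 and Col1a2. Pdgfra was at 6.361 CPM in WT and 3.709 CPM in KO. Lum, Dpt and Pi16 were under 1 CPM in every library. Dpt and Pi16, not tested, had totals of 6 and 2 counts in WT and 14 and 6 in KO, and Cd34 was not called (0.17, adjusted p = 0.663). Of 12 smooth muscle and pericyte markers, 5 of 9 tested were lower, beside the same 15.6% of all genes. The sum of the 12 was 1031 to 1145 CPM in WT and 580 to 675 CPM in KO, mostly Acta2, while Rgs5 was at 0 in all libraries. The 5 theca markers summed to 44.23 to 48.35 CPM in WT and 29.94 to 35.18 CPM in KO, nearly all from Ptch1, with the defining Cyp17a1 and Insl3 near 0. Ptch1 was lower (-0.54, adjusted p = 0.000896) but not after correction for length and GC (-0.04, adjusted p = 0.754). Endothelial sums, at 4.32 to 5.319 CPM in WT and 4.524 to 5.047 CPM in KO, overlapped between the groups, and so did immune sums, at 23.82 to 26.11 and 23.1 to 28.05 CPM. Surface epithelium markers were higher in KO, 109.6 to 126.3 against 139.6 to 182.2 CPM, with 5 of 7 passing, beside 2128 of all 15798 genes higher. Of these 5, Msln no longer passed after correction for length and GC (adjusted p = 0.06). Oocyte markers were at 3.167 to 8.83 and 5.435 to 11.42 CPM. Fewer cells of a type and less RNA per cell cannot be told apart in such bulk samples, and the part of the fibroblast and muscle markers in the lower matrix genes was not tested.

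Other genes of elastic fibres were lower along with Fbn1. Of 17 on the list, 16 were tested, 9 were lower and none higher, with a median log2 fold change of -0.41, beside 15.6% lower among all genes tested. After correction for length and GC 6 were lower (Lox, Fbln5, Emilin1, Emilin2, Ltbp2 and Mfap2), beside 11.3% of all genes. Mfap2 was not among the 9, and Hmcn1, Ltbp1, Ltbp3 and Ltbp4 no longer passed. They and Ltbp2 are named here after their values were seen. Lox, the lysyl oxidase that cross-links elastin and collagen, fell from 668.3 ± 49.0 to 329.4 ± 20.1 CPM (log2 fold change -1.02, SE 0.0935, adjusted p = 1.37e-06). Fbln5, a fibulin needed for elastic fibre assembly, fell from 83.88 ± 2.2 to 50.41 ± 4.3 CPM (-0.73, adjusted p = 3.92e-05). The fibre glycoproteins Emilin1 (-1.03, adjusted p = 0.00248) and Emilin2 (-0.75, adjusted p = 0.00371) were lower too, though neither passed with KO library 1 alone (adjusted p = 0.13 and 0.072). Mfap2, a microfibril component, was at 92.71 ± 6.09 and 81.19 ± 8.48 CPM and was not called (-0.19, adjusted p = 0.141), but it passed after correction for length and GC (-0.47, adjusted p = 0.00013) or length alone (-0.43, adjusted p = 0.00115) and with KO library 1 alone (-0.37, adjusted p = 0.0395). The list's count of lower genes was 5 without KO library 3 and 3 with KO library 1 alone.

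Matricellular relatives of Thbs1, Sparc and Postn showed changes in both directions. Of 22, 18 were tested, 4 were lower and 2 higher, with a median of 0.04. Among all genes tested, 15.6% were lower and 29.0% changed in either direction. Tnc, the adhesion-modulating tenascin-C, fell from 141.7 ± 8.89 to 67.58 ± 19.9 CPM (-1.07, adjusted p = 0.000988), and Fstl1, of the SPARC family, from 119.1 ± 6.62 to 74.48 ± 13.1 CPM (-0.68, adjusted p = 0.000407). Smoc1, also of that family (-0.37, adjusted p = 0.00554), and Ccn4 (-0.69, adjusted p = 0.00118) were lower, Ccn4 not with KO library 1 alone (adjusted p = 0.0716). Ccn2, known as a target of YAP, was higher at the threshold, 632.9 ± 105 against 824.9 ± 148 CPM (0.38, adjusted p = 0.0495), and the call did not survive leaving out any 1 of WT libraries 1 to 3 or of KO libraries 2 and 3 (adjusted p = 0.083 to 0.16) and after correction for length and GC (adjusted p = 0.0926). Ccn1, another such target, was at 1818 ± 234 and 2104 ± 109 CPM and was not called (0.21, adjusted p = 0.128). The other gene called higher was Spp1, which encodes osteopontin and is named here after its value was seen (0.62, adjusted p = 0.0198; after correction 0.48, adjusted p = 0.089). After correction the same 4 genes were lower, beside 11.3% of all genes, and 3 others were higher, beside 1927 of 15798. These were Smoc2 (0.65, adjusted p = 0.0238), Spock2 (0.33, adjusted p = 0.00502) and Tnr (1.5, adjusted p = 0.0458). They are named after their values were seen, and Tnr had totals of 44 WT and 61 KO counts. The count of higher genes was 0 without WT library 3 or without KO library 2, and 4 with scaling by library totals alone. Of all genes tested in these settings, 1363 of 15604, 1444 of 16147 and 2630 of 15798 were higher, in that order.

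Of 15 further small leucine-rich proteoglycans, the family of Bgn and Dcn, 12 were tested and 1 was lower, beside 15.6% of all genes tested. The median was -0.05, and Kera was at 0 in all libraries. Ogn, which encodes osteoglycin, fell from 68.15 ± 11.2 to 53.85 ± 3.06 CPM (-0.34, adjusted p = 0.0318), but the call was lost when any 1 of WT libraries 3 and 4 or of KO libraries 1 and 3 was left out (adjusted p = 0.0639 to 0.125). Fmod, encoding fibromodulin (-0.42, adjusted p = 0.0572), Lum, encoding lumican (-2.34 from a total of 58 WT and 8 KO counts, adjusted p = 0.0762), Aspn (adjusted p = 0.217) and Tsku (adjusted p = 0.466) were not called. Fmod passed after correction for length and GC (adjusted p = 0.0377), with voom (adjusted p = 0.011) and without KO library 1 (adjusted p = 0.0155), and Lum without WT library 1 (adjusted p = 0.0153) and without the low-count filter (adjusted p = 0.026). The list's count of lower genes was 2 after correction for length and GC, beside 11.3% of all genes.

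Receptors that bind these proteins included lower integrin subunits. Of 15, 14 were tested, 5 were lower and 1 higher, with a median of -0.45. Among all genes tested, 15.6% were lower and 29.0% changed in either direction. After correction for length and GC 3 were lower, beside 11.3% of all genes. Itgav and Itgb3 encode the subunits of an integrin that binds fibronectin, fibrillin-1 and thrombospondin-1. Itgav fell from 205.8 ± 3.26 to 105.8 ± 4.58 CPM (-0.96, adjusted p = 9.58e-07; after correction -0.61, adjusted p = 0.000151), and Itgb3 from 31.2 ± 2.83 to 16.65 ± 1.7 CPM (-0.91, adjusted p = 2.91e-05). Cd36, a thrombospondin-1 receptor, fell from 31.15 ± 1.27 to 21.85 ± 1.99 CPM (-0.51, adjusted p = 0.00172). Itga8 (-0.68, adjusted p = 0.00696; after correction adjusted p = 0.0568) and Itgb8, named after its value was seen (-0.52, adjusted p = 0.032; after correction adjusted p = 0.543), were also lower. Itgb5 was at 887.4 ± 58.8 and 872.0 ± 86.0 CPM and was not called (-0.03, adjusted p = 0.871). The integrin subunits Itga5 (-0.12, adjusted p = 0.309) and Itgb1 (-0.23, adjusted p = 0.0638), named after their values were seen, were not called either. Sdc4, a heparan sulphate co-receptor for fibronectin, was the gene called higher (548.2 ± 49.6 against 733.8 ± 176 CPM, 0.42, adjusted p = 0.0386), a call lost on leaving out any 1 library except KO library 1 (adjusted p = 0.0544 to 0.207) and after correction for length and GC (0.38, adjusted p = 0.0925). With KO library 1 alone its sign turned (-0.046, adjusted p = 0.862).

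**Figure D5:**
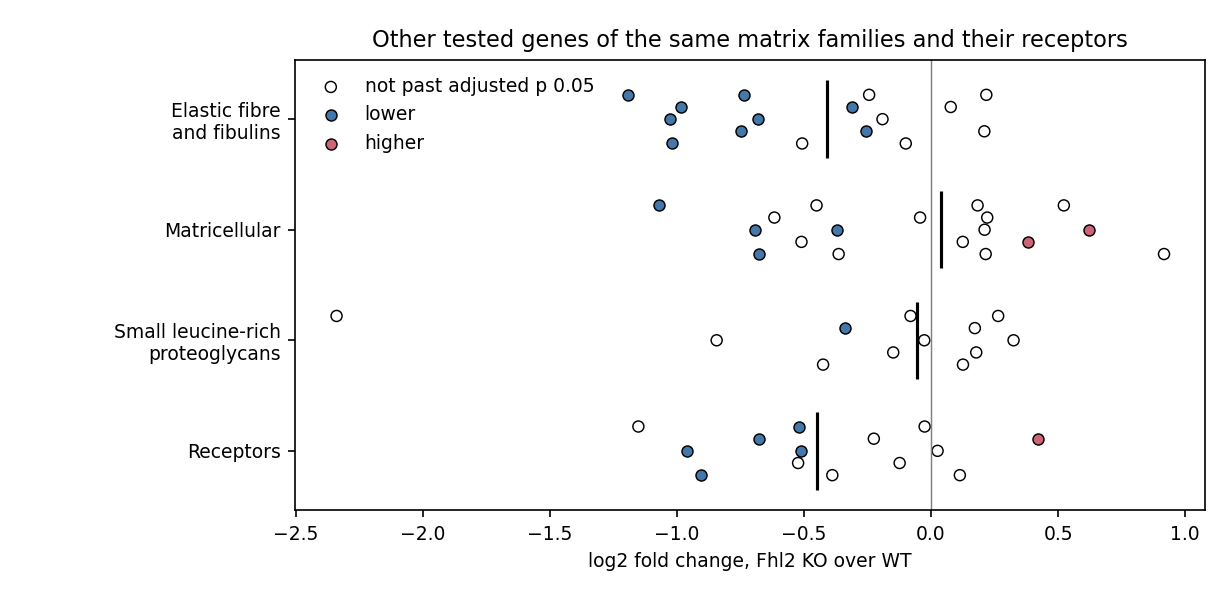
Log2 fold change of Fhl2 KO over WT (x axis) for each tested gene of 4 lists, the 10 genes above left out, with filled points for adjusted p under 0.05 and a bar at the list median. The medians are -0.41 for elastic fibre genes, 0.04 for matricellular genes, -0.05 for small leucine-rich proteoglycans and -0.45 for receptors.

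For each tested gene, the gene of at least 1 CPM with the most similar log2 CPM over the 7 libraries was looked up among 11676. These were Tns1 for Fn1 (Pearson r = 0.9992), Ptpn11 for Fbn1 (0.9995), Adgra3 for Thbs1 (0.9991), Pkp2 for Sparc (0.9960) and Heyl for Bgn (0.9899). For the fibulins they were Rhbdd1 for Fbln1 (0.9660) and Ing5 for Fbln2 (0.9899), and for the low genes Stk17b for Dcn (0.9806) and Acss1 for Eln (0.9414). These values describe libraries that differ in depth, genotype and length dependence.

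In the annotation, exons of Fbn1 overlap those of Gm9913 on the other strand over 20.1% of their bases, and exons of Fn1, Eln and Thbs1 overlap an opposite-strand gene over 2.5% to 3.42%. How the counting treated strand is not stated in the sources used here. The overlapping genes had at most 16 counts in any library, and no other of the 10 genes shared exonic bases with another gene.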

How the data were processed

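Per the labels, RNA of primary mouse granulosa cells was extracted with TRIzol and made into stranded mRNA libraries. The deposited values were read counts per gene symbol, whole numbers not normalized by the authors, for 4 WT and 3 Fhl2 KO libraries. The submitters' processing notes list the build mm10 and, without saying what each did, DESeq2 1.28.1, featureCounts 1.6.4, HISAT2 2.2.1, Cufflinks 2.2.1, fastp and SAMtools. Annotation release and strand setting: not given in the sources used here. Of 55228 rows, 25188 were 0 in all libraries.

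The test was edgeR's quasi-likelihood F test (version 4.0.16 under R 4.3.3; filterByExpr at its minimum count of 10, TMM scaling, robust fit) on genotype alone, with Benjamini-Hochberg adjustment over the 15798 genes tested. Genes left out held 0.0511% of counts. The SE is that of the log2 fold change. Levels per length used the exon union of GENCODE M21. The correction entered each library's spline (4 degrees of freedom) on length and GC as an offset. The spline was fitted to log2 CPM relative to each gene's mean over the libraries. Both length and GC were known for 98.6% of tested genes. Alternatives used DESeq2 1.42.0, limma 3.58.1 voom with quality weights, other scalings and filters, the replicate block and left-out libraries. The edgeR test at its main settings was also run on simulated counts in which 200 genes were changed. It recovered 48.5% of 1.5-fold and 74.0% of 2.0-fold changes, with 2 and 12 false calls, so a gene not called may still differ. The simulated counts had no length trend between the genotypes, so these false calls do not measure errors from such a trend. The other settings were not run on simulated counts. Same-group libraries differed by more than sampling noise (chi-square per degree of freedom at least 9.72).

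The 10 genes, the lists and the markers were chosen with earlier results of these data known. Other genes named were, from each list, up to 4 with the smallest p and the 2 with the highest level, and for each tested member the gene with the highest Pearson r; others are identified where named.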

Additional observations from a re-analysis of the deposited data

Results flagged for a closer look

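In 22 checks of whether 1 of the 4 WT libraries stood apart, 2 did, and chance alone gives about 1 in 20. The summed level of the 15 small leucine-rich proteoglycan genes was 133.8 CPM in WT library 3, where the other WT libraries had 111.8 to 113.5 CPM. The summed level of the 5 theca markers was 44.23 CPM in WT library 1, the lowest of a WT range reaching 48.35 CPM, and came nearly all from Ptch1.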

How the results depend on the processing

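Against 4588 genes called over all, the count was 781 with KO library 1 alone and 1657 to 6740 on leaving out 1 library. Members called, 4 in the full set, numbered 1 to 6 on leaving out 1 library (1 without KO library 3, Bgn) and 3 to 6 under the other settings. The other pathway genes called, 22 in the full set, numbered 10 with KO library 1 alone and 14 to 28 on leaving out 1 library. Same-numbered WT and KO libraries did not deviate together (r = 0.0449, 0.0019 and -0.0496), and not every library correlated best with its own number. With the replicate block, 3301 genes and 3 of the members were called, against 2960 and 3 for the same 6 libraries unpaired. Signs turned for Eln (-0.45 with voom, -0.070 with the replicate block, -0.46 to 0.63 on leaving out 1 library), for Thbs1 (0.085 corrected for length and GC, 0.059 for length alone), for Itgb5 (0.030 with voom, 0.013 with library totals, -0.11 to 0.034 on leaving out 1 library) and for Sdc4 (-0.046 with KO library 1 alone). Scaling by library totals alone gave 2129 genes lower and 2630 higher, against 2460 and 2128 with TMM. Why these counts and signs moved was not tested. Depth limits Eln, Dcn and Postn, each under 1 CPM.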
